A study of Mus musculus with 16 samples.

Results

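The 9 genes described here encode transcription factors that define the hepatocyte: Hnf4a, Cebpa, Cebpb, Foxa1, Foxa2, Foxa3, Onecut1, Nr5a2 and Prox1. They were chosen by name, as the rows of the deposited table of 35275 mouse Ensembl gene IDs whose symbol is one of these 9, and all 9 were found once each. Liver RNA was sequenced from mice with an intact Zfp36l1 gene (WT) and from mice in which Zfp36l1 was deleted in the liver alone (LKO), each kept on a control diet or on a diet with ethanol. Each of the 4 groups, WT control, WT ethanol, LKO control and LKO ethanol, has 4 libraries, so that 16 libraries enter in all, and no agent or allele beyond these is named in the labels. What drove the deletion, the strain, sex and age of the mice, the length of feeding and whether a library is 1 animal are not given in the sources used here, and p-values therefore measure only the spread between these libraries. The library numbers, 1 to 4 in each group, follow record order and are not used as a pairing.

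Hepatocyte identity is held by a small set of DNA-binding proteins that bind their own and each other's genes together with those of plasma proteins, bile acid enzymes and gluconeogenic enzymes. The nuclear receptors HNF4A and NR5A2, the leucine zipper proteins C/EBP alpha and C/EBP beta, the forkhead proteins FOXA and the homeodomain proteins ONECUT1 and PROX1 belong to it, and several of them are needed before birth to form the liver. ZFP36L1, the protein removed in LKO livers, binds AU-rich stretches in the untranslated end of messenger RNAs and speeds their decay.

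Because ZFP36L1 acts through such stretches, the 3′ untranslated regions of the members were searched for the 7-base word TATTTAT on the transcript strand (one annotated transcript per gene, GENCODE M21 on GRCm38). Foxa2, Onecut1 and Nr5a2 hold it, which is 3 of 9 members or 33.3%, beside 28.9% of 10541 tested genes with an annotated 3′ untranslated region and 33.3% of the 7846 with a region as long as the members'. The 4 sites are printed 5′ to 3′ on the transcript strand with 10 bases on each side and the word in capitals, because these are the members' candidates for contact with the deleted protein; a match is a description and not a shown binding site.
Foxa2, chr2:148042942-148042968, minus strand: ctgcgtgcttTATTTATggcttataaa
Onecut1 first site, chr9:74889719-74889745, plus strand: aaacaagtggTATTTATagtccaaaga
Onecut1 second site, chr9:74890487-74890513, plus strand: tcaggactatTATTTATgactcttgaa
Nr5a2, chr1:136843785-136843811, minus strand: tggaatagttTATTTATattgtatatc
In LKO against WT livers on the control diet, the log2 differences of these 3 genes were -0.01 for Foxa2, -0.04 for Onecut1 and -0.11 for Nr5a2. On ethanol they were 0.29, 0.40 and 0.31 with all libraries and -0.10, -0.0352 and -0.25 without WT ethanol 2, a library described further on. None of the 3 passed the test on either diet. Prox1, with 16 copies of the shorter word ATTTA in 5185 bases, holds no TATTTAT in this annotation, and neither do Hnf4a, Cebpa, Cebpb, Foxa1 and Foxa3.

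The promoters of the members, 250 bases before to 50 bases after each start, were taken from RefSeq (GRCm38.p6), where all 9 genes matched with 14 starts between them. They were searched on both strands for short words of the members' own families. The forkhead word TGTTTNC lies in 3 of the 14 member promoters (21.4%), 1 each of 3 genes, beside 20.5% of all 32851 promoters of that length, so that its share is near the background. These 3 windows are shown, on the strand of the gene and with the word or its reverse complement in capitals, because a forkhead gene had the largest ethanol difference relative to its error among the members.
Hnf4a upstream start, 238 bases before the start, chr2:163506609-163506635, plus strand: ggaaggctgaTGTTTCCaaaatctggc
Foxa1, 141 bases before the start, chr12:57546236-57546262, minus strand: atactgctttGTAAACAaagtgagggc
Prox1, 120 bases before the start, chr1:190169619-190169645, minus strand: atttgcttgcTGTTTGCatacctttca
The ONECUT word ATTGANT lies in 3 of the 14 (21.4%), 1 of Hnf4a and 2 of Foxa2, beside 8.32% of all promoters. The C/EBP word TTGCNNAA lies in 1, of Nr5a2 (7.14%), beside 10.8%, and neither the HNF4 word CAAAGTCCA (0.475% of promoters) nor the NR5A word CAAGGNCA (6.71%) was present in these windows. No word overlapped another. The Foxa3 promoter held none of the 5 words.

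Levels are in FPKM, the authors' count of fragments scaled to gene length and to the library's count, so that genes can be set beside each other. The deposited values were whole multiples of 1 read, which gave totals of 19069903 to 24768569 reads for 15 libraries and 9890475 for WT ethanol 2. This library stood apart: 22.52% of its reads were mitochondrial against 3.64% to 6.97% elsewhere, and its Spearman correlation with the other libraries was 0.670 to 0.716. Within every group, libraries 1 and 2 also lay apart from libraries 3 and 4 on the first principal component, which no label accounts for. It held 39.96% of the variance within groups over the 15 libraries without WT ethanol 2, and its 2 sides are called the first and second sets. Libraries 1 and 2 had the larger mitochondrial share in every group, as 6.66% and 5.57% against 4.05% and 4.06% in WT control. The sets were drawn from the tested values, so p-values from a fit with a term for them can be too small. Zfp36l1 itself was at 9.30 to 25.5 FPKM in WT libraries and at 0.572 to 1.76 FPKM in LKO libraries, a log2 difference of -2.77 on the control diet (adjusted p = 0.00148) and -3.02 on ethanol (adjusted p = 0.000428). The 8 hepatocyte markers, Alb and Ttr among them, summed to 56696 to 90468 FPKM over the 16 libraries. Of the markers of pancreatic acinar cells, which also express Nr5a2 and Onecut1, the 6 listed summed to at most 1.45 FPKM and Cpa1 and Prss2 were at 0 in every library. In bulk liver RNA, fewer hepatocytes and less RNA per hepatocyte cannot be told apart.

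On the control diet in WT, the members spanned a wide range of levels. Cebpa was highest at 176 ± 28.9 FPKM (mean ± SD, n = 4), next to Hnf4a at 147 ± 43.3, and their libraries overlapped. Cebpb at 86.2 ± 23.7 and Foxa3 at 35.7 ± 6.87 followed, each apart from its neighbours in all libraries. Prox1 at 17.5 ± 5.08, Nr5a2 at 11.6 ± 1.86 and Foxa2 at 11.5 ± 3.07 overlapped. Foxa1 was at 6.02 ± 1.69, with its highest library above the lowest of Foxa2. Onecut1 was lowest at 2.34 ± 0.849, below every Foxa1 library. In the LKO ethanol group the order at the top changed places: Hnf4a had a mean of 134 and Cebpa of 129 FPKM, and Foxa3 at 45.6 and Cebpb at 41.6 FPKM were level with each other, all with overlapping libraries. The plot of levels by library shows the 9 genes.

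**Figure D1:**
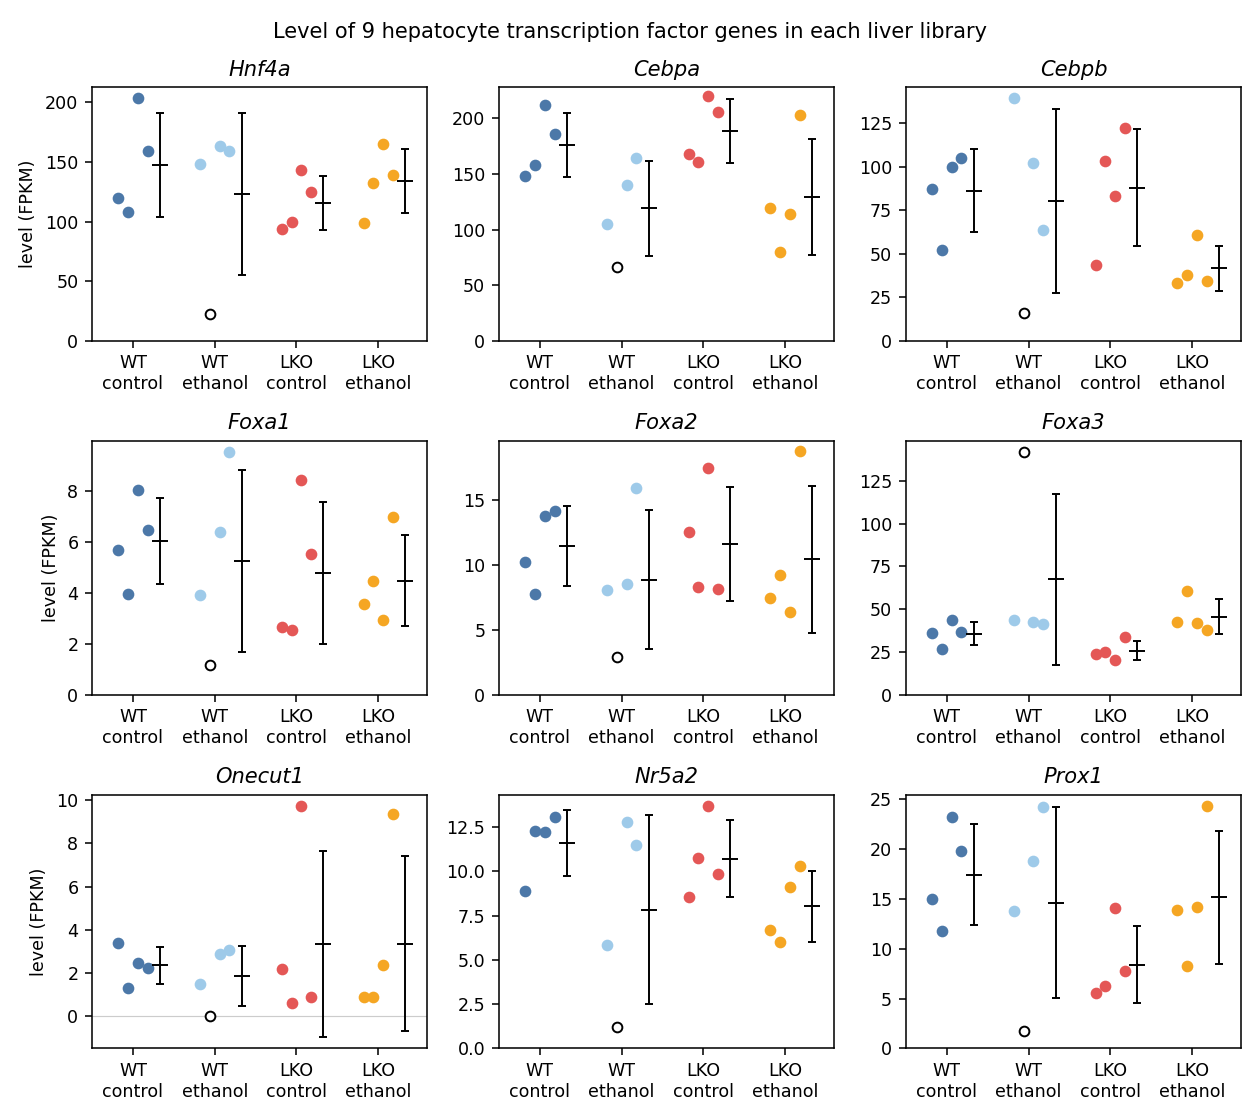
Level of each member in FPKM (y axis) in the 16 libraries of the 4 groups (x axis). Each point is 1 library, from left to right libraries 1 to 4, the open point is WT ethanol 2, and the bar is the mean with the SD over 4 libraries; the open point is the lowest of the 16 for 8 members and the highest for Foxa3.

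WT ethanol 2 set the spread of its group. It was the lowest of all 16 libraries for 8 members and the highest for Foxa3, at 142 FPKM against 20.4 to 60.3 in the others. Over the 11298 genes tested, 52.3% were also below all other libraries in it and 13.6% above. Hnf4a stood at 22.2 FPKM there against 94.0 to 204 elsewhere, and Prox1 at 1.76 against 5.54 to 24.3. Onecut1 had 0 reads in it, of 9890475 in all, against 56 reads of 24048517 in the next lowest library, LKO control 2. A count of 0 is not a measured absence, and its cause was not tested. In WT ethanol 2 the sinusoidal endothelial markers (12.1 FPKM summed) and stellate cell markers (16.02) were below the sums of the other 15 libraries. Its Kupffer cell markers (485) and cholangiocyte markers (75.0) were above them. The part of these cells in the members' values was not tested.

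With all 16 libraries, 0 of 9 members passed the test in any of the 7 comparisons made (limma on log2(FPKM + 1), Benjamini-Hochberg adjustment over 11298 genes, called at an adjusted p under 0.05). The shares of all genes called were 4.18% for ethanol against control diet in WT, 0.425% for the same in LKO, 0.00885% for LKO against WT on the control diet, 0.0797% for LKO against WT on ethanol, 0% for the interaction, 7.78% for ethanol averaged over genotypes and 0.142% for genotype averaged over diets. Foxa3 and Cebpa, 2 of 9 members, had an unadjusted p under 0.05 for ethanol averaged over genotypes, near the 21.6% of all genes that did. Foxa3 alone of the 9 did so for ethanol in LKO, near the 9.19% of all genes that did. None did in the other 5 comparisons, where 19.7% (ethanol in WT), 3.45% (genotype on the control diet), 11.9% (genotype on ethanol), 3.2% (interaction) and 10.4% (genotype averaged) of genes did. The fits with voom on whole reads, another pseudocount, no filter, equal sums or quantile normalization also called 0 members in each comparison. Some other fits with all libraries did call members. For ethanol averaged over genotypes, Cebpa was called with median-of-ratios scaling (-0.68, adjusted p = 0.0263), where 11.7% of all genes were. It was also called with a term for the 2 sets of libraries (-0.62, adjusted p = 0.0245), where 12.3% were. Calls with array weights are given further on.

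Foxa3 had the largest difference relative to its error. FOXA3 is the forkhead protein most abundant in adult liver and takes part in glucose and fat metabolism. In LKO mice its level was 23.8, 24.7, 20.4 and 33.6 FPKM on the control diet (libraries 1 to 4) and 42.5, 60.3, 41.8 and 37.8 FPKM on ethanol. All ethanol libraries lay above all control libraries, as they did for 8.15% of all genes in this comparison. The ratio of means was 1.78, the log2 difference 0.81 (SE 0.348, 95% interval 0.07 to 1.54, adjusted p = 0.479), and the exact permutation test gave p = 0.0286, the smallest that 70 arrangements allow. In WT it was at 36.1, 26.6, 43.4 and 36.5 FPKM on the control diet and at 43.7, 142, 42.4 and 41.3 on ethanol, with overlap. The WT log2 difference was 0.69 (SE 0.348, adjusted p = 0.283) with WT ethanol 2 and 0.26 (SE 0.209, adjusted p = 0.451) without it.

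Averaged over genotypes, the ethanol difference of Foxa3 was 0.75 (SE 0.246, 95% interval 0.23 to 1.27, adjusted p = 0.0721). Without WT ethanol 2, where 20.5% of all genes were called, Foxa3 rose on ethanol by 0.54 (SE 0.142, adjusted p = 0.0157). In LKO alone, with the spread estimated without that library, its rise of 0.81 also passed (SE 0.193, adjusted p = 0.0326), where 3.62% of genes did. In the averaged comparison with all libraries, 1 of 5 endothelial markers (Lyve1, 1.75), 1 of 5 stellate cell markers (Des, 0.57) and 1 of the 2 tested of 6 cholangiocyte markers (Sox9, 0.79) rose. The list medians were -0.33 for endothelial cells, 0.07 for stellate cells and 0.22 for cholangiocytes, beside 0.02 over all genes. No marker of the other lists was called. Their medians were -0.05 for hepatocytes, 0.19 for fetal liver, -0.23 for Kupffer cells and 0.82 for blood leukocytes (3 of 6 markers tested). Without WT ethanol 2, where Foxa3 was called, 2 of 5 endothelial markers rose (Lyve1 by 2.17 and Pecam1 by 0.63), as did Des (0.48) and Sox9 (0.74), while Spp1, a cholangiocyte marker, fell by 0.64 (adjusted p = 0.0128). The medians for endothelial cells, stellate cells and cholangiocytes were then -0.26, 0.48 and 0.05, beside 0.11 over all genes. The hepatocyte markers Ahsg (0.47, adjusted p = 0.0143) and Ttr (-0.54, adjusted p = 0.0186) were called too. The blood leukocyte median was 0.85, with no marker called. In LKO alone Lyve1 rose by 1.75 in that fit (adjusted p = 0.0177), and no stellate cell or cholangiocyte marker was called. The part of these cells in the Foxa3 value was not tested. The interaction, the LKO response minus the WT response, was 0.11 (SE 0.492, 95% interval -0.93 to 1.15) with all libraries and 0.54 (SE 0.285, adjusted p = 0.968) without WT ethanol 2, so a difference between the genotypes was not shown. Within the first set of libraries the LKO difference was 1.03 and within the second 0.58. On the control diet Foxa3 was at 25.7 ± 5.64 FPKM in LKO and 35.7 ± 6.87 in WT, a log2 difference of -0.46 (95% interval -1.20 to 0.27, adjusted p = 0.9997, exact p = 0.0571).

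Foxa1 and Foxa2, the forkhead pioneers that open liver chromatin in the embryo, did not pass the test in any comparison with all libraries. Foxa1 had group means of 6.02 (WT control), 5.24 (WT ethanol), 4.78 (LKO control) and 4.47 FPKM (LKO ethanol), and its libraries ranged from 1.14 to 9.52. Its ethanol difference was -0.36 (SE 0.423) in WT with all libraries, 0.08 (SE 0.354) without WT ethanol 2, so that its sign rests on that library, and -0.01 (SE 0.423) in LKO. Foxa2 had group means of 11.5, 8.85, 11.6 and 10.4 FPKM in the same order and ranged from 2.90 to 18.8. The ethanol differences of Foxa2 were -0.49 (SE 0.403) in WT, -0.10 without WT ethanol 2, and -0.19 (SE 0.403) in LKO. For both genes every pair of groups overlapped. The 95% interval for ethanol in LKO reached from -0.90 to 0.88 for Foxa1 and from -1.04 to 0.66 for Foxa2, both overlapping that of Foxa3, and the difference between these genes and Foxa3 was not tested.

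The share of Foxa3 in the summed FPKM of the 3 Foxa genes was 69.5%, 69.5%, 66.5% and 63.9% in WT control livers and 61.1%, 69.5%, 44.1% and 71.1% in LKO control livers. The WT ethanol livers had 78.4%, 97.2%, 74.0% and 61.9%, and the LKO ethanol livers 79.4%, 81.5%, 81.9% and 59.5%. In each genotype 3 of 4 ethanol libraries lay above every control library, and library 4 lay below the control median. Library 4 was also the ethanol library with the most Foxa2 in both genotypes, at 15.9 FPKM in WT and 18.8 FPKM in LKO.

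**Figure D2:**
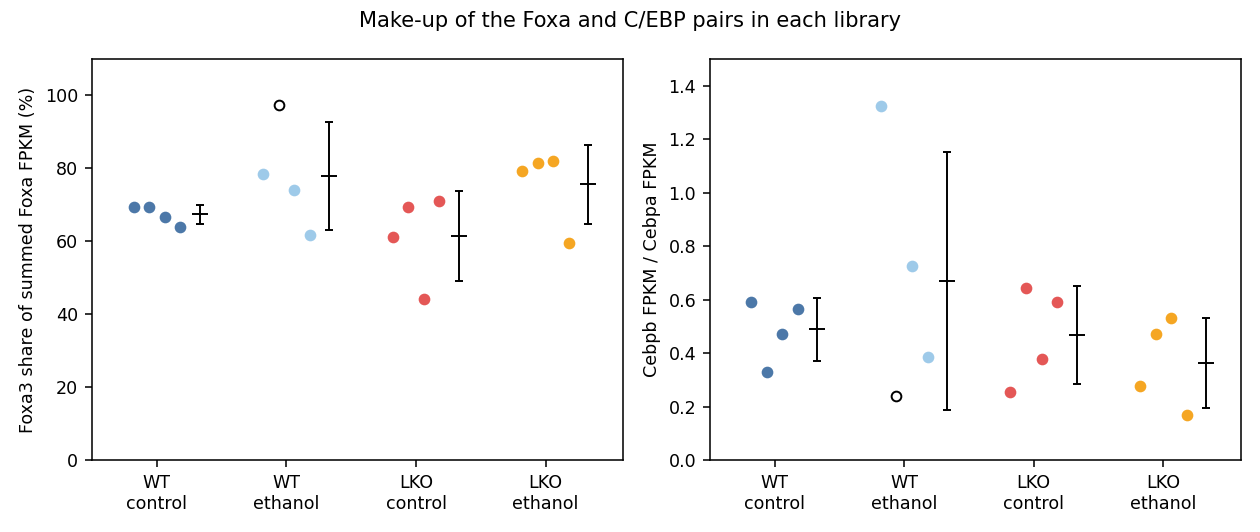
Left, Foxa3 as a percentage of the summed FPKM of Foxa1, Foxa2 and Foxa3; right, the ratio of Cebpb to Cebpa FPKM. Points are libraries 1 to 4 of each group (x axis), open for WT ethanol 2, with the mean and SD beside them; in each genotype 3 of 4 ethanol libraries have a Foxa3 share above every control library, and the Cebpb ratio overlaps between all groups.

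Cebpa, the C/EBP that holds adult hepatocytes in a quiescent, metabolically active state, was lower on ethanol in both genotypes without passing the test. WT levels were 148, 158, 212 and 186 FPKM on the control diet and 105, 66.3, 141 and 165 on ethanol. LKO levels were 168, 161, 220.4 and 206 FPKM on the control diet and 119, 80.3, 115 and 203 on ethanol. In each genotype 3 of 4 ethanol libraries were below every control library and library 4 was within the control range. The log2 difference was -0.62 in WT (SE 0.319, exact p = 0.0857) and -0.61 in LKO (SE 0.319, exact p = 0.0857). Averaged over genotypes it was -0.62 (SE 0.225, 95% interval -1.09 to -0.14, adjusted p = 0.106), and -0.49 (adjusted p = 0.0667) without WT ethanol 2.

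The call on Cebpa turned on the fit, and the p-values from fits with the set term can be too small, as said above. With a term for the first and second sets, Cebpa fell by 0.62 on ethanol averaged over genotypes (adjusted p = 0.0245), where 12.3% of all genes were called, and with that term and without WT ethanol 2 it fell by 0.53 (SE 0.125, adjusted p = 0.00573), where 32.6% of all genes were called. Without LKO ethanol 4, the only library of its group near the control level, the averaged difference of -0.74 passed as well (adjusted p = 0.0459), where 8.27% of genes did. Within the first set it was -0.87 in WT (-0.54 without WT ethanol 2) and -0.74 in LKO, and within the second -0.38 and -0.48. LKO and WT differed by 0.10 on the control diet (95% interval -0.57 to 0.77) and by 0.11 on ethanol (-0.56 to 0.79), or -0.14 without WT ethanol 2, and neither passed the test.

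Cebpb, the C/EBP induced in the acute phase response and in regeneration, scattered widely. WT levels were 87.3, 52.4, 99.9 and 105 FPKM on the control diet and 139, 16, 102 and 63.4 on ethanol. LKO levels were 43.3, 103, 83.1 and 122 FPKM on the control diet and 33.3, 37.8, 60.9 and 34.3 on ethanol. The LKO ethanol libraries were low and close together apart from library 3, which overlapped the lowest control library. The LKO log2 difference was -1.01 (SE 0.514, 95% interval -2.09 to 0.07, adjusted p = 0.608, exact p = 0.0571), and -0.90 and -1.12 within the first and second sets. In WT it was -0.42 with all libraries and 0.21 without WT ethanol 2 (SE 0.359), so its sign rests on that library.

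Between genotypes, Cebpb on the control diet was at 87.9 ± 33.8 FPKM in LKO and 86.2 ± 23.7 in WT, with a log2 difference of -0.02 (95% interval -1.10 to 1.06). On ethanol it was at 41.6 ± 13.1 in LKO and 80.3 ± 52.9 in WT, a difference of -0.61 (adjusted p = 0.671). Without WT ethanol 2, every LKO ethanol library lay below every WT ethanol library, as they did for 5.89% of all genes. That difference was -1.24 (SE 0.359, adjusted p = 0.146), and the exact test over 35 arrangements gave p = 0.0571. The interaction without that library was -1.22 (SE 0.489, unadjusted p = 0.0238, adjusted p = 0.968), where 4.42% of genes had an unadjusted p under 0.05. The ratio of Cebpb to Cebpa had medians of 0.518 in WT control, 0.556 in WT ethanol, 0.485 in LKO control and 0.375 in LKO ethanol, and its highest value was 1.32 in WT ethanol 1. Cebpb overlaps Tmem189 on the opposite strand, which was at 2.80 to 14.6 FPKM, and whether reads were counted by strand is not stated.

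Ethanol and control diets are set beside each other for the 9 genes in the plot of ethanol differences, in which the intervals narrow once WT ethanol 2 is left out.

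**Figure D3:**
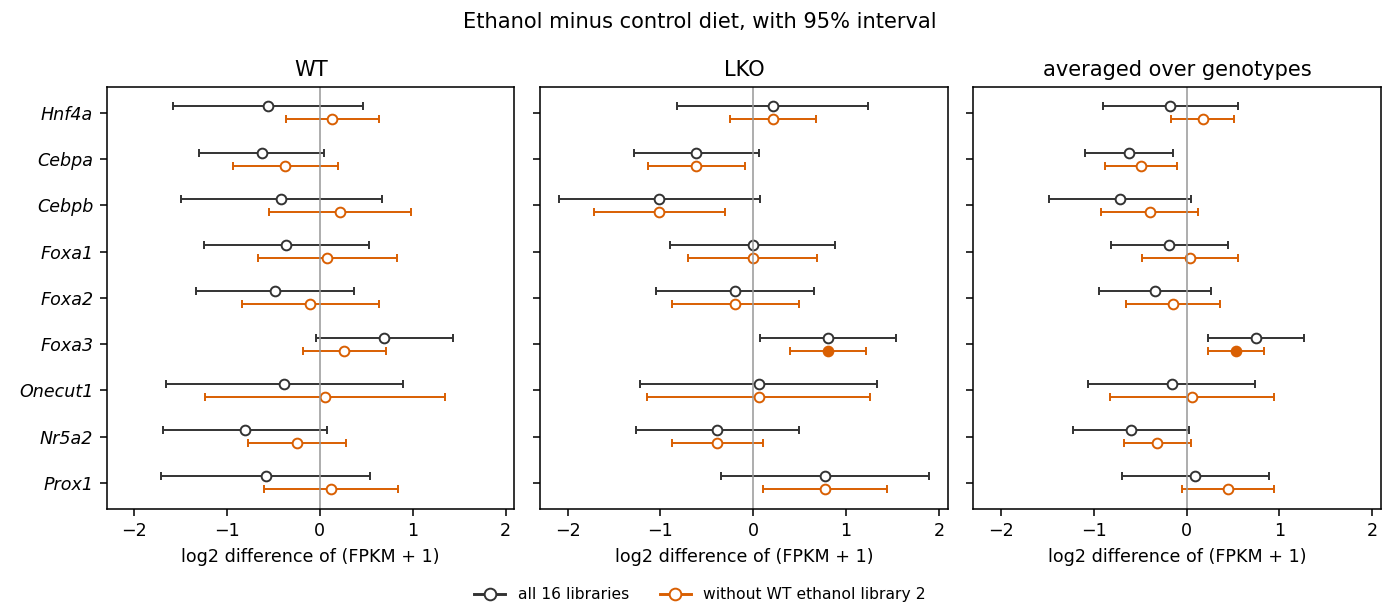
Log2 difference of FPKM + 1, ethanol minus control diet (x axis), for each member (y axis) in WT, in LKO and averaged over genotypes. Points are limma estimates with 95% intervals from all 16 libraries (black) or without WT ethanol 2 (orange), filled where the adjusted p is under 0.05; only Foxa3 is filled, at 0.81 in LKO and 0.54 averaged, both without that library.

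Hnf4a, the nuclear receptor at the head of the hepatocyte network, showed no difference beyond its spread. WT levels were 119.7, 108, 204 and 159 FPKM on the control diet and 148, 22.2, 164 and 159 on ethanol. LKO levels were 94.0, 99.9, 143 and 124 FPKM on the control diet and 99.2, 132, 165 and 139 on ethanol. The groups overlapped throughout, and libraries 3 and 4 were above libraries 1 and 2 in each of the 4 groups. The ethanol difference in WT was -0.56 (SE 0.486) with all libraries and 0.13 (SE 0.236, 95% interval -0.37 to 0.63) without WT ethanol 2. In LKO it was 0.21 (95% interval -0.82 to 1.24). LKO against WT gave -0.33 on the control diet (adjusted p = 0.9997) and, on ethanol, 0.44 with WT ethanol 2 and -0.25 without it. Its antisense neighbour Hnf4aos was at 2.65 to 10.9 FPKM.

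Nr5a2, the receptor that drives bile acid and cholesterol genes, was at 8.87, 12.3, 12.2 and 13.1 FPKM in WT control and 5.83, 1.23, 12.8 and 11.5 in WT ethanol. In LKO it was at 8.55, 10.8, 13.7 and 9.88 FPKM on the control diet and 6.71, 6.02, 9.12 and 10.3 on ethanol. The ethanol groups reached lower in both genotypes but overlapped the control groups. Averaged over genotypes the difference was -0.59 (SE 0.296, 95% interval -1.22 to 0.03, adjusted p = 0.258), and -0.31 (adjusted p = 0.210) without WT ethanol 2. It passed in 1 of the 26 alternative fits, that with the set term and without WT ethanol 2, where it fell by 0.35 (SE 0.117, adjusted p = 0.0324). LKO and WT differed by -0.11 on the control diet (95% interval -0.99 to 0.77).

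Prox1, a homeodomain protein that restrains bile acid synthesis and HNF4A activity, had the largest genotype difference among the members on the control diet. There it was at 15.04, 11.7, 23.3 and 19.8 FPKM in WT and at 5.54, 6.21, 14.1 and 7.79 in LKO. On ethanol it was at 13.8, 1.76, 18.8 and 24.2 FPKM in WT and at 13.9, 8.31, 14.2 and 24.3 in LKO. On the control diet 3 of 4 LKO libraries were below every WT library, and LKO control 3, at 14.1 FPKM, lay within the WT range. The ratio of means was 0.481, and the log2 difference -1.01 (SE 0.532, 95% interval -2.13 to 0.11, adjusted p = 0.9997) or -1.06 and -0.96 within the first and second sets. The exact test gave p = 0.0571, and 1.05% of the genes tested had a difference at least as large in this comparison.

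On ethanol the Prox1 levels of LKO and WT were 15.2 ± 6.68 and 14.6 ± 9.58 FPKM (n = 4 each), and the WT mean without library 2 was 18.9 ± 5.19 FPKM (n = 3). The log2 difference between them was 0.35 with all libraries and -0.36 (adjusted p = 0.557) without that one, so its sign rests on it. Within LKO, ethanol against control diet gave 0.77 (SE 0.532, 95% interval -0.35 to 1.90, adjusted p = 0.760, exact p = 0.0857), with 0.78 in the first set and 0.77 in the second. The interaction was 1.36 (SE 0.752, 95% interval -0.23 to 2.94, adjusted p = 0.927) with all libraries and 0.65 (SE 0.465, adjusted p = 0.968) without WT ethanol 2, in which Prox1 was at 1.76 FPKM. Averaged over diets, LKO against WT gave -0.33 (SE 0.376, adjusted p = 0.816), and -0.68 (SE 0.233, adjusted p = 0.126) without that library. With the set term and without it, Prox1 had a log2 difference of -0.63 between LKO and WT averaged over diets (adjusted p = 0.0266), where 11.1% of all genes were called, and was higher on ethanol in LKO by 0.77 (adjusted p = 0.0275), where 10.7% were. Prox1 overlaps the antisense genes Prox1os, at 2.69 to 7.82 FPKM, and Gm28172, at 0 to 4.56 FPKM.

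Onecut1, a homeodomain activator of Hnf4a and of the biliary programme, was the scarcest and the most scattered member. WT levels were 3.37, 1.30, 2.47 and 2.21 FPKM on the control diet and 1.48, 0, 2.87 and 3.03 on ethanol. LKO levels were 2.18, 0.588, 9.73 and 0.866 FPKM on the control diet and 0.849, 0.851, 2.35 and 9.36 on ethanol. In each LKO group 1 library, LKO control 3 and LKO ethanol 4, was above all others of the study, with 936 and 917 reads against at most 276 elsewhere. The log2 differences were between -0.38 and 0.44 in the 5 comparisons of groups and their interaction, with standard errors of at least 0.605, and the ethanol difference in WT moved from -0.38 to 0.06 without WT ethanol 2. The gene passed in none of the 26 alternative fits of any comparison.

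**Figure D4:**
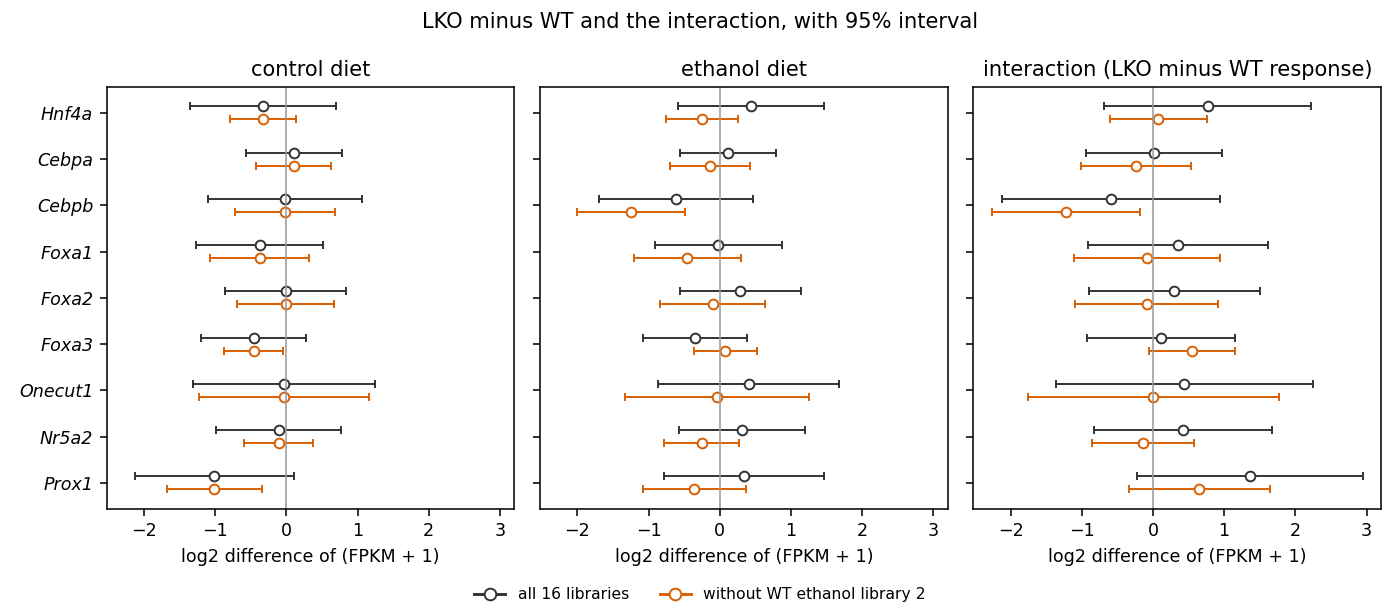
Log2 difference of FPKM + 1 for each member (y axis), LKO minus WT on the control diet, on the ethanol diet, and the interaction (LKO response minus WT response to ethanol). Points are limma estimates with 95% intervals from all 16 libraries (black) or without WT ethanol 2 (orange), and none is filled because no adjusted p is under 0.05; the estimates farthest from 0 with all libraries are Prox1 at -1.01 on the control diet and 1.36 for the interaction.

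The plot of genotype differences shows the intervals behind these values. On the control diet the median log2 difference of the 9 members was -0.11, beside -0.10 over all genes tested, and 1 member was above 0. On ethanol the medians were 0.29 and -0.03 with all libraries, and -0.25 and -0.23 without WT ethanol 2. For ethanol against control diet they were -0.49 and -0.02 in WT (0.08 and 0.17 without that library) and -0.01 and 0.06 in LKO. The members' median thus changed sign in WT with 1 library.

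Over the 15 libraries without WT ethanol 2, the members' levels were related in uneven ways (Spearman's rho, a description over libraries that share groups, sets and depth). Foxa1 went with Prox1 (0.764), Foxa2 (0.743) and Onecut1 (0.736), and Onecut1 with Prox1 (0.729). Foxa3 ran against Cebpa (-0.571) and Nr5a2 (-0.425). Cebpb was near 0 with Foxa2 (-0.0500), Foxa3 (-0.0571), Prox1 (-0.0464) and Onecut1 (-0.0357). The 9 members therefore did not vary as 1 block. Levels also differed between the sets, with a median of 159 FPKM in the second against 108 in the first for Hnf4a, and 19.3 against 11.7 FPKM for Prox1. The sets were drawn from these data, and the share of all genes higher in the second was not counted. The difference can therefore not be read as a trait of the members. The part of the sets in these relations was not tested.

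**Figure D5:**
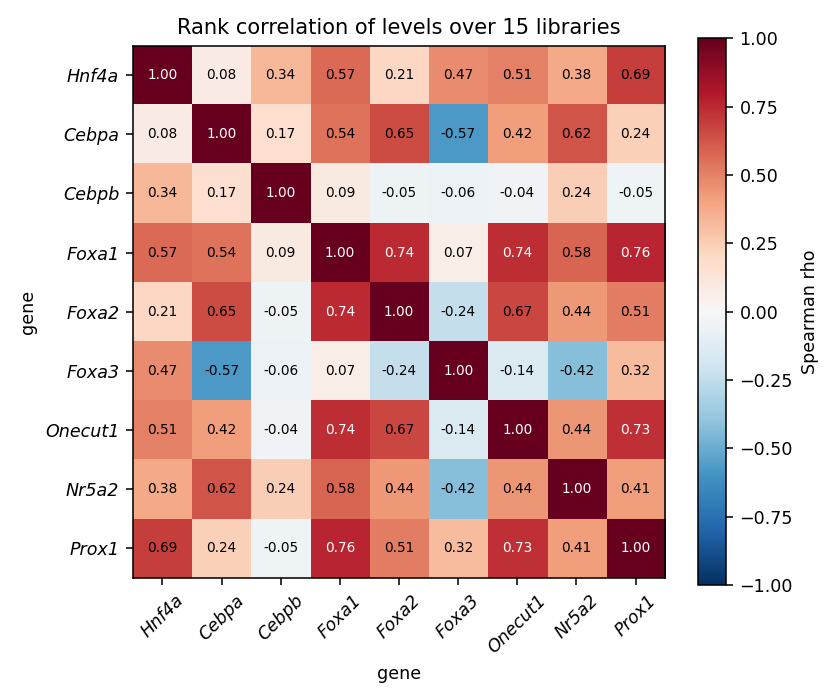
Spearman rank correlation between the levels of each pair of members over the 15 libraries without WT ethanol 2 (colour and number in each cell, from -1 to 1). Foxa1, Foxa2, Onecut1 and Prox1 share values of 0.51 to 0.76, and Foxa3 has -0.57 with Cebpa.

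By the same measure each member was set beside all tested protein-coding genes. The closest gene is the highest of many values over few libraries, so a high value can arise between unrelated genes, and shared control was not tested. The gene closest to Hnf4a was Abhd17c, at 0.959 over 16 libraries and 0.950 over 15. For Cebpa it was Masp2, a complement protease made by hepatocytes (0.935 and 0.921). Cebpb was closest to Etfbkmt (0.882 and 0.857) and Onecut1 to Adap2 (0.912 and 0.893). For these 4 members the closest gene was the same with and without WT ethanol 2. For Foxa3 the closest genes were Chka (0.906) and Blcap (0.894) over 16 libraries, but Lrrc58 (0.946) and Mat2a, the S-adenosylmethionine synthase induced in damaged liver (0.936), over 15. Prox1 was closest to Ski (0.965) and Nbeal2 (0.962) over 16, and the same pair led over 15. Nr5a2 was closest to Ipo8 (0.944) and then to Faap100 (0.943) over 15, Foxa1 to Eml3 (0.935) and then to Mief1 (0.925). Foxa2 had the lowest leading value, 0.853 with Taf8 over 16 libraries and 0.854 with Nuak2 over 15.

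Of 32 other liver-enriched transcription factors listed, 30 were tested, and 0 passed in the main fit of any comparison but 1. For ethanol averaged over genotypes, 1 was higher and 5 were lower, or 6 of 30 beside 7.78% of all genes, with a list median of -0.17 against 0.02 for all genes. The lower ones were Dbp (-2.43, adjusted p = 0.0161) and Tef (-1.07, adjusted p = 0.0256), both clock-output leucine zipper genes, Ppara, the receptor for fatty acids (-1.22, adjusted p = 0.0294), Klf15, a fasting-response zinc finger gene (-1.67, adjusted p = 0.0329), and Hlf, kin of Dbp (-0.93, adjusted p = 0.0372). Dbp went from 27.4 to 11.6 FPKM in WT means and from 49.1 to 4.76 FPKM in LKO means. The higher one was Creb3l3 (0.56, adjusted p = 0.0330), a membrane-bound factor of the lipid and acute phase response. Without WT ethanol 2, where 20.5% of all genes were called, the counts were 5 higher and 8 lower. Hlf and Creb3l3 are named after their values were seen.

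The genes known to be bound or driven by the members are given by list. In WT on ethanol, 2 of 12 HNF4A-bound genes, 2 of 10 C/EBP-bound genes and 2 of 6 genes under NR5A2 were called, beside 4.18% of all genes, and G6pc and Cyp8b1 each stand in a pair of these lists. Averaged over genotypes, 1 of 12, 3 of 10 and 2 of 6 were called, with 1 of 6 FOXA-bound genes, beside 7.78%. In LKO, 1 of 10 C/EBP-bound genes and none of the other lists were called, beside 0.425%. Without WT ethanol 2 the counts in LKO were unchanged, beside 3.62% of all genes. In WT they were then 2 of 12 HNF4A-bound, 1 of 10 C/EBP-bound, 2 of 6 NR5A2 and 1 of 6 FOXA-bound genes, beside 9.48%. Averaged over genotypes without WT ethanol 2, 4 of 12 HNF4A-bound, 4 of 10 C/EBP-bound, 3 of 6 NR5A2 and 2 of 6 FOXA-bound genes were called, beside 20.5% of all genes. Of 12 listed HNF4A-bound genes, 0 rose and 2 fell on ethanol in WT: Cyp8b1, a bile acid hydroxylase, fell by 1.99 (adjusted p = 0.0193) and G6pc, the last step of glucose release, fell by 3.28 (adjusted p = 0.0471). Without WT ethanol 2, where 9.48% of all genes were called in WT, the 2 called were Cyp8b1 and Apoa2. Of 6 genes under NR5A2, Cyp7a1, the rate-limiting enzyme of bile acid synthesis, fell by 3.19 in WT (adjusted p = 0.0139) and fell by 2.40 averaged over genotypes (adjusted p = 0.00459). Cyp8b1 fell by 1.33 averaged over genotypes (adjusted p = 0.0150). Nr5a2 itself, in the same averaged fit, was at -0.59 and did not pass. Without WT ethanol 2, Cyp7a1 fell by 2.91 in WT (adjusted p = 0.0200) and Cyp8b1 fell by 2.16 (adjusted p = 0.0104). Of the cell type markers, only Des of stellate cells was called in WT with all libraries (0.93, adjusted p = 0.0296). With WT ethanol 2 left out, Lyve1 (2.58), Cd68 of macrophages (1.47), Des (0.75) and Ahsg of hepatocytes (0.66) rose in WT. The part of these cells in the list values was not tested.

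Of 10 genes bound by C/EBP proteins, Lcn2, an acute phase protein, rose on ethanol in WT by 4.22 (adjusted p = 0.00478) and averaged over genotypes by 3.29 (adjusted p = 0.000844). Hamp, the iron hormone hepcidin, fell by 4.16 in LKO (adjusted p = 0.00563) and fell by 2.53 averaged (adjusted p = 0.00197). Gys2, liver glycogen synthase, fell by 1.06 averaged (adjusted p = 0.0456). Of 6 genes bound by FOXA proteins, Igfbp1, an insulin-repressed binding protein, rose by 1.81 averaged (adjusted p = 0.0425). In LKO against WT, 0 genes of these 4 lists were called on either diet with all libraries. Without WT ethanol 2, Hamp was lower in LKO on ethanol (-3.02, adjusted p = 0.0357), where 0.221% of all genes were called. Averaged over diets without that library, Mttp, which loads lipid onto lipoproteins, was higher in LKO (0.64, adjusted p = 0.0449), where 1.07% of all genes were called. The list medians for ethanol averaged over genotypes were -0.43 for HNF4A, -0.35 for C/EBP, -0.35 for FOXA and -0.84 for NR5A2, beside 0.02 over all genes. With WT ethanol 2 left out they were -0.29, -0.12, -0.12 and -0.75, beside 0.11. In WT alone that library turned the C/EBP median from 0.36 without it to -0.45 with it and the FOXA median from 0.32 to -0.43, and the HNF4A median was -0.28 without it and -0.91 with it.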

How the data were processed

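RNA-seq was made from total liver RNA in 16 libraries. The authors deposited FPKM values per Ensembl gene. Per the submitters' processing notes, fastp, STAR 2.6.1, HTSeq and DESeq2 and the build mm10 are named, without their order or settings; strandedness is not given in the sources used here. Symbols and positions were taken from GENCODE M21 (GRCm38, the assembly of mm10), which named 34490 of 35275 IDs. Whole reads were recovered from the FPKM steps: 100% of the values of 20520 genes lay within 0.1 of a whole read, leaving at most 0.0444% of a library unexplained.

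Genes with FPKM of at least 1 in at least 4 libraries were kept (11298, among them all 9 members; none was lost). Values were tested as log2(FPKM + 1), which understates the changes of low genes, with limma 3.58.1 in R 4.3.3 (group means of 4 groups, eBayes with trend), two-sided, Benjamini-Hochberg over all genes kept, called under 0.05; intervals are 95% and unadjusted. Exact permutation tests compared the means of log2(FPKM + 1) between 2 groups, unadjusted. The procedure was tested on simulated data. The members and the lists were chosen with earlier results of these data known. Named genes were the members, Zfp36l1, each member's 2 closest protein-coding genes, and at most 4 called genes per list and comparison. Beyond these, genes overlapping a member, some cell type markers, and Hlf and Creb3l3 were named. Alternatives were another pseudocount (0.1), no filter, 3 scalings, array weights, a term for the 2 sets, voom on whole reads, and leaving out each library, and, chosen after seeing the data, array weights estimated gene by gene. Intervals cover the spread between libraries only.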

Additional observations from a re-analysis of the deposited data

Results flagged for a closer look

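In 3 of 36 combinations of member and group, 1 library lay far from the other 3 by Dixon's ratio at its 95% critical value, where chance flags about 1 in 20. In WT ethanol, library 2 was lowest for Hnf4a at 22.18 FPKM (ratio 0.889) and highest for Foxa3 at 142.1 FPKM (ratio 0.976). In LKO ethanol, library 3 was highest for Cebpb at 60.92 FPKM (ratio 0.836), where the others were at 33.3 to 37.8. WT ethanol 2 is the library with 22.52% mitochondrial reads and 9890475 reads in all; their part in the values was not tested.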

How the results depend on the processing

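No paired analysis was made because the numbers of the libraries follow the order of the records and no label states a pairing. Some titles carry adjacent numbers across diets, whose meaning is not given and which were not used. The array weights are unreliable for WT ethanol. Their estimate stopped before it converged and gave library 3 a weight of 0.014 and library 4 one of 1.8, and weights estimated gene by gene, added after seeing the data, gave library 3 a weight of 5.0 and library 4 one of 1.06. With either, WT ethanol rested mostly on 1 library, so no call is drawn from them. Limma called 0 members in every comparison with all libraries, and the count differed under some alternatives, given here with the share of all genes called in the same fit. For ethanol in LKO it was 2 with either array weights (Foxa3, Prox1, 9.89% and, gene by gene, 7.69%), 3 with the set term and no WT ethanol 2 (Cebpa, Foxa3, Prox1, 10.7%), and 0 to 1 when single libraries were left out, 1 without WT ethanol 2 (Foxa3, 3.62%). For LKO against WT on the control diet it was 1 with either array weights (Prox1, adjusted p = 0.0251 and 0.0333, with 3.88% and 2.30%). For LKO against WT on ethanol it was 1 with gene-by-gene weights (Cebpb, adjusted p = 0.0217, with 30.7%). For ethanol averaged over genotypes it was 1 with median-of-ratios scaling (Cebpa, 11.7%), 2 with either array weights (Foxa3, Prox1, 25.9% and 36.7%), 1 with the set term (Cebpa, 12.3%), 3 with that term and no WT ethanol 2 (Cebpa, Foxa3, Nr5a2, 32.6%), and 0 to 1 when single libraries were left out, 1 without WT ethanol 2 (Foxa3, 20.5%) and 1 without LKO ethanol 4 (Cebpa, 8.27%). For LKO against WT averaged over diets it was 1 with array weights (13.99%) and 1 with the set term and no WT ethanol 2 (11.1%), Prox1 in both, and 2 with gene-by-gene weights (Foxa1, Prox1, 34.1%). The number of genes called moved more: from 472 to between 146 and 4334 for ethanol in WT, from 48 to between 6 and 1206 in LKO, from 1 to between 1 and 438 for genotype on the control diet, from 9 to between 1 and 3465 on ethanol, from 0 to between 0 and 506 for the interaction, from 879 to between 519 and 4147 for averaged ethanol and from 16 to between 5 and 3848 for averaged genotype. The median of all genes was -0.10 for genotype on the control diet as deposited, and -0.12 for ethanol in WT and 0.20 for the interaction with equal sums. The causes were not tested.

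Of the members' differences, 82 changed sign under other settings and 71 when 1 library was left out, against 525 and 934 that kept sign and call. Another 23 and 3 kept their sign and became called. No member was called in the main fit, so no sign change could touch a call there. With array weights, sign changes for ethanol in WT gave 0.14 for Hnf4a, 0.41 for Foxa1, 0.31 for Foxa2, 0.14 for Onecut1 and 0.34 for Prox1, for ethanol in LKO 0.22 for Foxa1, for genotype on the control diet 0.0341 for Cebpb, for genotype on ethanol -0.21 for Hnf4a, -0.20 for Cebpa, -0.48 for Foxa2, -0.0448 for Onecut1, -0.24 for Nr5a2 and -0.42 for Prox1. For the interaction -0.25 for Cebpa, -0.19 for Foxa1, -0.42 for Foxa2 and -0.13 for Nr5a2. For averaged ethanol 0.21 for Hnf4a, 0.31 for Foxa1, 0.10 for Foxa2 and 0.30 for Onecut1. For averaged genotype -0.28 for Hnf4a, -0.0733 for Cebpa, -0.27 for Foxa2, -0.21 for Onecut1 and -0.18 for Nr5a2. With gene-by-gene weights, sign changes for ethanol in WT gave 0.24 for Hnf4a, 0.24 for Cebpb, 0.21 for Foxa1, 0.22 for Onecut1, 0.0860 for Nr5a2 and 0.23 for Prox1, for ethanol in LKO 0.23 for Foxa1, for genotype on the control diet 0.0247 for Cebpb, for genotype on ethanol -0.27 for Hnf4a, -0.11 for Cebpa, 0.0003 for Foxa3, -0.0474 for Onecut1, -0.48 for Nr5a2 and -0.28 for Prox1. For the interaction -0.17 for Cebpa and -0.37 for Nr5a2. For averaged ethanol 0.28 for Hnf4a, 0.22 for Foxa1 and 0.39 for Onecut1. For averaged genotype -0.31 for Hnf4a, -0.0303 for Cebpa, -0.0159 for Foxa2, -0.21 for Onecut1 and -0.30 for Nr5a2. With the set term and no WT ethanol 2, sign changes for ethanol in WT gave 0.0610 for Hnf4a, 0.17 for Cebpb and 0.0051 for Prox1, for genotype on ethanol -0.18 for Hnf4a, -0.0605 for Cebpa, -0.0316 for Foxa2, 0.0830 for Foxa3, -0.18 for Nr5a2 and -0.24 for Prox1. For the interaction -0.16 for Cebpa, -0.0206 for Foxa2 and -0.0660 for Nr5a2. For averaged ethanol 0.14 for Hnf4a. For averaged genotype -0.25 for Hnf4a, -0.0213 for Foxa2 and -0.14 for Nr5a2. With a pseudocount of 0.1, sign changes for ethanol in LKO gave 0.0091 for Foxa1, for genotype on ethanol 0.0480 for Foxa1. With equal sums, sign changes for ethanol in LKO gave 0.0056 for Foxa1, for genotype on ethanol 0.0334 for Foxa1. With voom, sign changes for ethanol in LKO gave 0.0127 for Foxa1. With median-of-ratios scaling, sign changes for genotype on the control diet gave 0.13 for Cebpb, 0.13 for Foxa2, 0.0520 for Onecut1 and 0.0275 for Nr5a2, for genotype on ethanol 0.12 for Foxa1, for the interaction -0.0159 for Cebpa. With quantile normalization, sign changes for genotype on the control diet gave 0.0598 for Foxa2 and 0.11 for Onecut1, for genotype on ethanol 0.0697 for Foxa1, for the interaction -0.0749 for Cebpa, for averaged genotype -0.0230 for Hnf4a.

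For ethanol in WT, leaving out 1 library gave -0.81 to 0.13 for Hnf4a, -0.80 to 0.21 for Cebpb, -0.69 to 0.0799 for Foxa1, -0.61 to 0.0570 for Onecut1 and -0.94 to 0.12 for Prox1. For ethanol in LKO, leaving out 1 library gave -0.20 to 0.27 for Foxa1, -0.49 to 0.0128 for Foxa2 and -0.49 to 0.64 for Onecut1. For genotype on the control diet, leaving out 1 library gave -0.24 to 0.28 for Cebpb, -0.22 to 0.12 for Foxa2 and -0.62 to 0.30 for Onecut1. For genotype on ethanol, leaving out 1 library gave -0.25 to 0.69 for Hnf4a, -0.14 to 0.31 for Cebpa, -0.46 to 0.31 for Foxa1, -0.10 to 0.61 for Foxa2, -0.51 to 0.0796 for Foxa3, -0.15 to 0.68 for Onecut1, -0.25 to 0.62 for Nr5a2 and -0.36 to 0.70 for Prox1. For the interaction, leaving out 1 library gave -0.24 to 0.21 for Cebpa, -0.0870 to 0.68 for Foxa1, -0.0891 to 0.62 for Foxa2, -0.0443 to 0.54 for Foxa3, -0.11 to 1.03 for Onecut1 and -0.14 to 0.73 for Nr5a2. For averaged ethanol, leaving out 1 library gave -0.30 to 0.17 for Hnf4a, -0.35 to 0.0364 for Foxa1, -0.44 to 0.13 for Onecut1 and -0.0852 to 0.45 for Prox1. For averaged genotype, leaving out 1 library gave -0.29 to 0.18 for Hnf4a, -0.0188 to 0.21 for Cebpa, -0.0556 to 0.30 for Foxa2, -0.11 to 0.35 for Onecut1 and -0.18 to 0.26 for Nr5a2.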
